A study of Mus musculus with 1545 samples.

Results

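The genes described here are the 3 opioid peptide precursors Penk, Pdyn and Pnoc and the 4 opioid receptors Oprm1, Oprd1, Oprk1 and Oprl1. They were taken by name, 7 of the 24378 genes counted, and all 7 had counts. They were measured by single-cell RNA sequencing in 1545 mouse neurons from the dorsal horn, where sensory fibres for pain, itch and touch end in the spinal cord. Of these cells, 637 came from C57bl6 wild-type mice aged 18 to 28 days, 537 from vGat-Cre-tdTomato mice aged 17 to 24 days, and 371 from vGlut2-eGFP mice aged 23 to 26 days. In the first reporter line the vesicular GABA transporter gene drives Cre and so the red marking of inhibitory neurons. In the second, excitatory neurons are green, through the gene of a vesicular glutamate transporter. No group was given a drug, an injury or another treatment in the labels.

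The authors annotated 30 neuron types, 14 inhibitory with 760 cells and 15 excitatory with 767 cells, while 18 cells belong to a type with labels of both kinds (cell type Gaba1, cluster Glut_Gal) and were kept out of both classes. The labels name no animals. Counts were therefore summed over cells that share line, age and sex in the labels. This gave 17 animal sets, 10 of wild type, 3 of the vGat line and 4 of the vGlut2 line, and these are the replicates. A set may hold several mice, and sets may share a litter. P-values measure the spread between these sets, which may be partly technical.

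Opioid peptides are cut out of larger precursor proteins and are released from neurons beside the classical transmitters. Penk encodes proenkephalin, the source of the enkephalins, which act on the delta and mu receptors (Oprd1, Oprm1). Pdyn encodes prodynorphin, the source of the dynorphins, which favour the kappa receptor (Oprk1). Pnoc encodes prepronociceptin, whose product nociceptin acts on the nociceptin receptor (Oprl1). All 4 receptors couple to Gi/o proteins, which lower cyclic AMP, close presynaptic calcium channels and open GIRK potassium channels. In the dorsal horn this damps the passage of pain signals, and Oprm1 is the main receptor of morphine.

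The coding sequences show what parts the 3 precursors. The opioid core is a run of 4 codons, for tyrosine, glycine, glycine and phenylalanine, and in nociceptin the tyrosine is replaced by phenylalanine. In the longest coding transcript of each gene (GENCODE vM21, GRCm38, matching the mm10 build named for the counts), the tyrosine core stood in frame 7 times in Penk and 3 times in Pdyn, and 0 times in Pnoc, which held the phenylalanine form once. Of 21790 genes read the same way, 0.326% held the tyrosine core at least once and 0.491% the phenylalanine form. Examples of each follow, 5′ to 3′ on the coding strand, with the core in capitals. The lower-case codons before the core encode 2 basic residues, where the precursor is cut, and the codon right after the core encodes the fifth residue of the peptide.
Penk, core followed by methionine, chr4:4134307-4134333, minus strand: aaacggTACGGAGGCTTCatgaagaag
Penk, core followed by leucine, chr4:4133935-4133961, minus strand: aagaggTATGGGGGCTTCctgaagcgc
Pdyn, core followed by leucine, chr2:129688232-129688258, minus strand: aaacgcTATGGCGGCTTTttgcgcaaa
Pnoc, phenylalanine form, chr14:65404872-65404898, minus strand: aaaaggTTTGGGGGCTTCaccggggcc
Of the 7 Penk copies, 6 continued with methionine and 1 with leucine, and all 3 Pdyn copies continued with leucine, as in the enkephalins and dynorphins. The receptor genes lie at chr10:6758506-7038198 (Oprm1, plus strand), chr4:132110726-132144486 (Oprd1, minus), chr1:5588466-5606131 (Oprk1, plus) and chr2:181715016-181720985 (Oprl1, plus) in the same annotation.

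Values are molecule counts (UMIs, each standing for 1 captured RNA molecule). CPM below are UMIs per 1000000 UMIs of the cells summed. Median depth per cell was 8687 UMIs for wild type, 10413 for the vGat line and 7030 for the vGlut2 line. The classes matched their defining markers: inhibitory markers summed to between 969 and 3985 CPM over the inhibitory types and to 118.8 CPM or less in the excitatory ones, while excitatory markers summed to between 541.9 and 1091 CPM and to 34.4 CPM or less. Of the 16 sets labelled male, 6 had the female transcript Xist in at least 90% of cells, 4 in between 10 and 90%, and 6 in 10% or less. The sex labels therefore served only to form the sets and to choose those in the test of age. Markers of oligodendrocytes, a glial cell type, differed between lines, with 10 of 10 genes detected in each line but only 5 and 3 in the 23- and 24-day vGlut2 sets. Their sum was 18803 to 51046 CPM over the wild-type sets, 1481 to 4421 CPM over the vGat sets, and 78.2, 86.1, 2125 and 39988 CPM in the vGlut2 sets of 23, 24, 25 and 26 days. The 26-day vGlut2 set also held 5 cells of inhibitory types among its 17 cells. No capture run held more than 1 animal set, so the effect of the line and that of the run cannot be told apart.

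In all cells together, 5115 UMIs of Penk were counted, 2781 of Pnoc, 1763 of Oprl1, 60 of Oprm1 and 14 of Oprd1, with Pdyn and Oprk1 in between at under 1000 each. These totals give the precision of each gene and are not a ranking of levels between genes, since the gene's length and capture were not accounted for. At least 1 UMI was found in 54.2% of cells for Penk, 37.7% for Pnoc, 11.8% for Pdyn, 59.3% for Oprl1, 21.1% for Oprk1, 3.30% for Oprm1 and 0.647% for Oprd1.

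Levels by neuron type are given as a description, with no test, because the authors built the types from the same cells and named one of them after Pnoc. Types with at least 3 cells in 2 or more sets could be ordered with their spread, 28 in all. The order was mostly unresolved: among neighbouring types, the higher mean minus its SD lay above the lower mean plus its SD in only 1 pair (Pnoc) and in 0 pairs for the other 6 genes.

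Penk was highest in types of both classes. Its level was 1073 ± 305.7 CPM (SD, n = 7 sets) in the excitatory type Glut11, 972 ± 489.3 CPM (n = 11) in the excitatory type Glut10 and 967 ± 310.7 CPM (n = 4) in the inhibitory type Gaba6. The authors' cluster names tie the first 2 to Tac1, the substance P precursor, and the third to Npy, neuropeptide Y. Other types so named varied in Penk. Gaba9, also tied to Tac1, had 74.2 ± 76.9 CPM (n = 6). Gaba7 and Gaba5, also tied to Npy, had 147.7 ± 106.5 CPM (n = 4) and 598.5 ± 105.5 CPM (n = 3). Glut11, Glut10 and Gaba6 overlapped in their spread, and 6 types in all overlapped with Glut11. Gaba2 followed with 625.8 ± 235.1 CPM (n = 9). No type was at 0 for Penk. Its lowest pooled level was 69.6 CPM in Gaba14, and the medians were 161.6 CPM over inhibitory and 226.2 CPM over excitatory types. Glut10, Gaba2, Gaba6 and Glut11 held 17.8%, 12.004%, 11.3% and 11.1% of all Penk UMIs, beside 8.35%, 5.63%, 3.30% and 3.95% of the cells.

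Pdyn was concentrated in one inhibitory type. Gaba3, which the authors' cluster name ties to the galanin gene and to Rspo3, held 56.9% of all Pdyn UMIs with 9.39% of the cells. Its level was 129.03 ± 97.7 CPM over 10 sets, which ran from 0 to 313.4 CPM. The next ordered type, Gaba5, had 44.8 ± 31.5 CPM (n = 3), and 7 types in all overlapped with Gaba3. Most Pdyn UMIs came from the vGat line, at 44.85 CPM over its cells beside 10.1 CPM in wild type. The share held by Gaba3 therefore rests mainly on that line. Gaba4, with 8 UMIs in 11 cells, stood at 58.9 CPM (exact Poisson interval 25.4 to 115.97, counting error only) and could not be given a spread. In 11 of the 15 excitatory types no Pdyn UMI was counted, and the highest excitatory type reached 7.34 CPM.

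Pnoc marked inhibitory types. Gaba2, whose cluster name carries Pnoc, had 908 ± 262.5 CPM (n = 9 sets, 692 to 1517 CPM) and stood apart from the next type, overlapping only with the type of conflicting labels (384.7 ± 395.2 CPM, n = 2). Gaba7 (423.6 ± 156.1 CPM, n = 4), Gaba3 (420 ± 174.2, n = 10), Gaba9 (398.9 ± 99.4, n = 6) and Gaba8 (384.9 ± 140, n = 4) came next and overlapped. Every inhibitory type held Pnoc, with a lowest pooled level of 62.4 CPM. The excitatory types had a median of 3.71 CPM and 5 of the 15 were at 0. The highest among them were Glut3 at 58.3 CPM (17 UMIs) and Glut11 at 38.03 CPM (23 UMIs). Over sets these had 56.03 ± 78.1 CPM (n = 3) and 57.3 ± 121.05 CPM (n = 7), so the SD exceeded the mean in both.

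Of the receptors, Oprl1 was the most even across types and Oprk1 was highest in inhibitory types. Oprl1 was counted in all 30 types, between 66.8 and 204.6 CPM in inhibitory types and between 72.5 and 140 CPM in excitatory types. Its highest mean was in Gaba11 (170.8 ± 55.7 CPM, n = 7), and 23 other types overlapped with it. Oprk1 had 100.8 ± 49.6 CPM in Gaba6 (n = 4), 100 ± 21.2 CPM in Gaba7 (n = 4) and 69.6 ± 29.6 CPM in Gaba2 (n = 9). In all, 12 types overlapped with Gaba6 for Oprk1, among them excitatory types such as Glut7 (27.4 ± 34.9 CPM, n = 6). The median type had 38.3 CPM among inhibitory and 18.2 CPM among excitatory types. Gaba6 and Gaba7, both tied to Npy by cluster name, were thus high for Oprk1, and Gaba6 was also high for Penk. Their Oprl1 means were near the highest too, but most types overlapped there. Gaba5, also tied to Npy by cluster name, had 37.4 ± 28.9 CPM of Oprk1 and 116.7 ± 49.2 CPM of Oprl1 (n = 3).

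**Figure D1:**
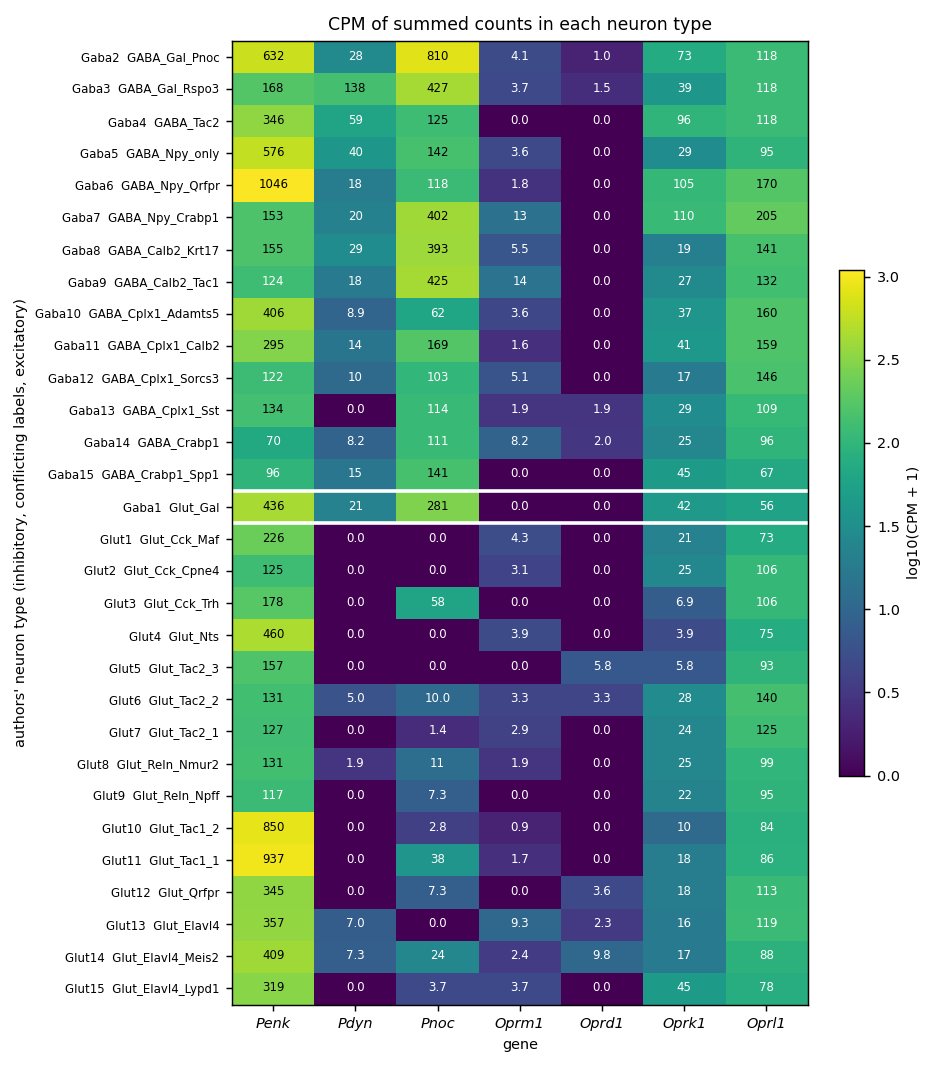
Level of each opioid gene (columns) in each of the 30 annotated neuron types (rows), as CPM of counts summed over all lines, printed in the cells and coloured by log10(CPM + 1). Penk is high in rows of both classes, up to 1046 CPM in Gaba6 and 937 CPM in Glut11, while Pdyn and Pnoc are low in the excitatory rows.

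Oprm1 and Oprd1 were too sparse for any ordering. Pooled over lines, the Oprm1 level was highest in Gaba9 (13 UMIs in 85 cells, 13.5 CPM, exact Poisson interval 7.19 to 23.1 CPM) and Gaba7 (5 UMIs in 39 cells, 12.8 CPM, 4.15 to 29.8 CPM). No Oprm1 UMI was held by 7 types. By the mean over sets Gaba7 (17.96 ± 16.7 CPM, n = 4) lay above Gaba9 (9.33 ± 13.6 CPM, n = 6), and they overlapped. Gaba9 gave 21.7% of all Oprm1 UMIs with 5.502% of the cells. Oprd1 had 0 UMIs in 21 types. The type with the most was Glut14, with 4 UMIs in 34 cells (9.79 CPM, interval 2.67 to 25.1 CPM).

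The UMIs of Penk and Pnoc were spread unevenly over cells. Before thinning, 52.4% of excitatory cells had a Penk UMI, 26.5% had at least 5 and 17 cells at least 20, with a maximum of 48. Of inhibitory cells, 56.3% had a Penk UMI, 24.6% at least 5 and 18 cells at least 20. For Pnoc, 72.5% of inhibitory cells had a UMI and 30.3% at least 5, against 2.61% and 0.522% of excitatory cells. For the receptors counts per cell were low: at least 5 UMIs were found in 36 cells for Oprl1 (33 inhibitory, 3 excitatory) and in 5 cells for Oprk1.

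To compare shares of cells at equal depth, each cell was thinned at random to 3000 UMIs. Penk then had a UMI in 36.2% of inhibitory cells (exact binomial 95% interval 32.8 to 39.7%) and 39.9% of excitatory cells (36.4 to 43.5%). Pnoc had one in 49.7% of inhibitory (46.1 to 53.4%) and 1.30% of excitatory cells (0.627 to 2.38%). Pdyn had one in 9.74% (7.72 to 12.1%) and 0.261% (0.0316 to 0.939%). Oprk1 had one in 10.4% (8.32 to 12.8%) and 5.35% (3.86 to 7.18%), and Oprl1 in 32.1% (28.8 to 35.6%) and 27.1% (24.0 to 30.4%). Oprm1 had one in 2.63% (1.61 to 4.04%) and 0.652% (0.212 to 1.51%), and Oprd1 in 0.395% and 0.391%. Intervals here cover counting error only, and free RNA can give a UMI in a cell that does not express a gene. The data hold no non-neuronal cells to set that background. Before the thinning the median was 7364 UMIs in excitatory and 10429.5 in inhibitory cells. Among excitatory cells, 4 had at least 10 Pnoc UMIs. For Penk the lowest share in a type of at least 30 cells was 14.6%, in Gaba14 (5.57 to 29.2%).

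More than 1 opioid precursor per cell was found mainly in inhibitory cells. At 3000 UMIs, 23.0% of the 760 inhibitory cells (20.1 to 26.2%) held at least 2 of the 3 precursors and 18 held all 3. Among excitatory cells, 4 of 767 (0.522%, 0.142 to 1.33%) held 2 and 0 held 3. In Gaba2, 44 of the 51 cells with Penk also had Pnoc, and so had 33 of the 36 cells without Penk. In Gaba3, 23 of the 38 cells with Pdyn also had Pnoc (60.5%), beside 64.5% of those without Pdyn. Over all inhibitory cells, Pnoc was found in 50.5% of those with Penk (44.5 to 56.6%) and 49.3% of those without (44.7 to 53.8%). At least 2 receptors were found in 5.13% of inhibitory cells (3.67 to 6.95%) and 1.96% of excitatory cells (1.10 to 3.21%). A precursor and a receptor together were found in 28.0% of inhibitory and 13.3% of excitatory cells. No precursor was found in 29.7% of inhibitory and 59.1% of excitatory cells, and no receptor in 59.9% and 68.4%. Joint shares depend on such single shares, which differ between the classes. A joint share expected from them was not computed, so no excess of joint detection is shown. These shares rest on a few UMIs per gene, which can miss an expressed gene, while free RNA or doublets can add one.

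**Figure D2:**
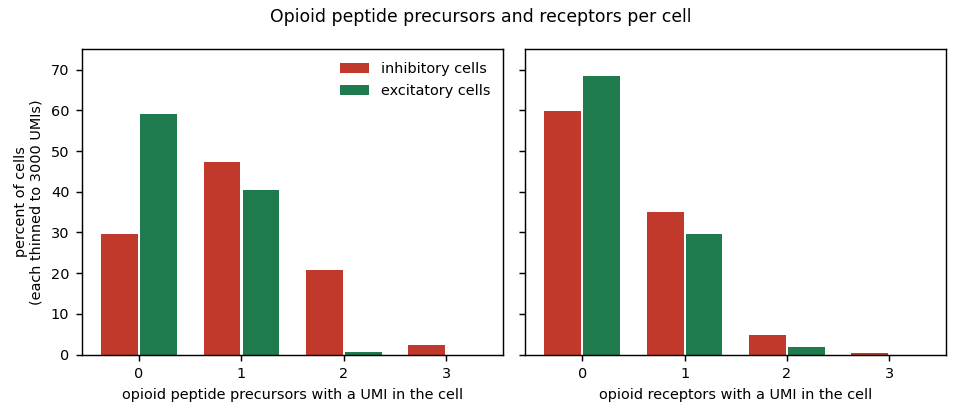
Percent of inhibitory (red) and excitatory (green) cells (vertical axis) by the number of opioid precursors (left) or receptors (right) with a UMI, each cell thinned to 3000 UMIs. Among inhibitory cells 20.7% held 2 precursors and 2.37% held 3, against 0.522% and 0% of excitatory cells.

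The vGat line was compared with the vGlut2 line by edgeR's quasi-likelihood test on counts summed per animal set, with p-values adjusted by Benjamini-Hochberg over 10598 genes. Lines are labels and not derived from the counts. Within such sums, fewer cells of a type and less RNA per cell cannot be told apart. Pdyn, Pnoc and Oprk1 were higher in the vGat line, and Penk and Oprl1 did not pass the test. Oprm1 and Oprd1 did not pass the filter on low counts in this or any other comparison. Of all genes tested, 4.32% were called higher and 4.53% lower in the vGat line. Of the 5 members tested, 3 were called higher and 0 lower. The median log2 difference of the 5 members was 0.98, beside -0.01 over all genes tested. Pdyn and Pnoc passed the filter only through the vGat sets, where they are high, so a call of lower was hardly possible for them. The count and the median are therefore no test of the members as a group.

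Pnoc stood at 321.4, 347.4 and 361.2 CPM in the 17-, 18- and 24-day vGat sets. It stood at 26.1, 0, 3.07 and 87.996 CPM in the 23-, 24-, 25- and 26-day vGlut2 sets. The groups did not overlap, and the log2 difference was 4.24 (SE 0.62, adjusted p = 0.000245 in edgeR). Under DESeq2 the adjusted p was 0.0723, and without the 26-day vGlut2 set, which held the inhibitory-type cells, the difference was 5.46.

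Pdyn stood at 46.1, 52.5 and 28.6 CPM in the vGat sets. In the vGlut2 sets it stood at 2.17, 0, 0.511 and 18.9 CPM, from 5 UMIs in all. The groups did not overlap (log2 difference 4.36, SE 0.63, adjusted p = 0.000196 in edgeR). Without the 26-day vGlut2 set it was 5.597.

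Oprk1 stood at 43.8, 44.4 and 57.3 CPM in the vGat sets and at 28.2, 9.57, 25.1 and 12.6 CPM in the vGlut2 sets. The groups did not overlap, and the log2 difference was 0.98 (SE 0.25, edgeR adjusted p = 0.0215). The call was lost (adjusted p 0.0523 to 0.147) without any one of the 3 vGat sets or without the 25-day vGlut2 set, which holds most of that line's cells. It was also lost under DESeq2 (0.0853), with age as a covariate (0.0722) and with thinned cells (0.226).

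Penk overlapped between the lines, at 302.06, 337.9 and 239.3 CPM in the vGat sets and 197.6, 804, 307.3 and 232.6 CPM in the vGlut2 sets. The log2 difference was -0.32 (SE 0.34, edgeR adjusted p = 0.654), and without the 24-day vGlut2 set of 19 cells, the high one, it was 0.17. Oprl1 overlapped too, at 150.7, 170 and 121.1 CPM against 152.03, 191.4, 123 and 119.4 CPM (log2 difference 0.02, SE 0.20, adjusted p = 0.978). A p above the threshold does not show that these levels were alike.

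**Figure D3:**
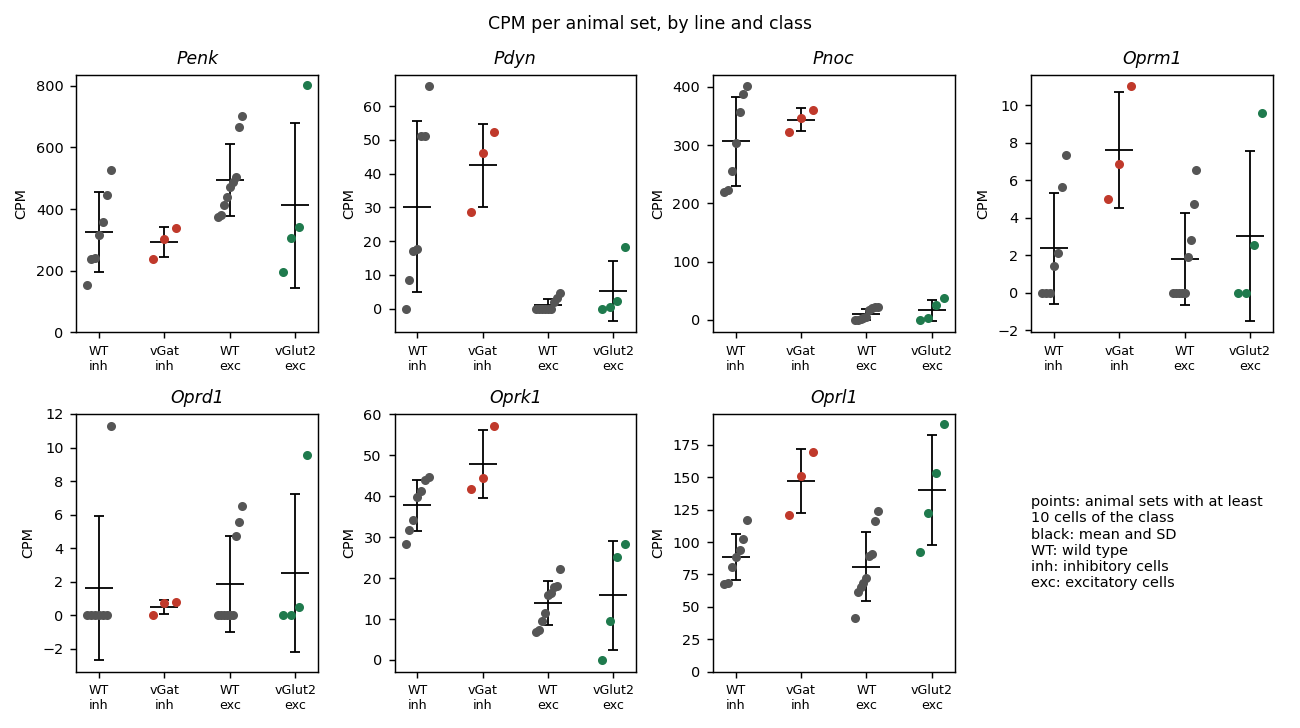
CPM of each opioid gene in each animal set (points) with at least 10 cells of the class, in inhibitory cells of wild type and the vGat line and excitatory cells of wild type and the vGlut2 line, with black bars for the mean and SD. For Oprk1 the lowest inhibitory set, at 28.3 CPM, lies beside the highest excitatory set, at 28.4 CPM, and all others are apart.

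Within wild-type mice, both classes came from the same sets, and 7 sets held at least 10 cells of each. The authors assigned the classes from these same cells, so this comparison is not independent of the counts. With the set as a block, 8135 genes were tested, of which 3.17% were called higher and 2.46% lower in inhibitory cells. Pdyn, Pnoc and Oprk1 were called higher and 0 members lower. The median log2 difference was 1.39 over the 5 members tested and -0.01 over all genes. Pdyn, Pnoc and Oprk1 passed the filter only through their inhibitory sums, where they are high, so a call of lower was hardly possible for them. The count and the median are therefore no test of the members as a group. Pnoc ran from 219.2 to 401.2 CPM (median 304.3) in inhibitory and from 0 to 21.3 CPM (median 5.68) in excitatory cells, and was higher in inhibitory cells in 7 of 7 sets (log2 difference 4.56, SE 0.29, edgeR adjusted p = 5.14e-10). Oprk1 ran from 28.3 to 44.7 CPM (median 39.8) and from 6.87 to 18.0 CPM (median 15.9). The classes did not overlap and it was higher in 7 of 7 sets (1.39, SE 0.31, adjusted p = 0.00699). Pdyn ran from 0 to 65.9 CPM (median 17.7) against 0 to 4.72 CPM (median 0) and was higher in 6 of 7 sets (3.42, SE 0.82, adjusted p = 0.0122). Pdyn was tested in 14 alternatives, while Pnoc was tested in 18. The Pdyn call was lost in 4 of the 14, namely without the 18-day set (0.0649), without the 19-day set (0.0801), under DESeq2 (0.0593) and with at least 20 cells per sum (0.183). With the low-count filter set by the groups rather than by the blocked design, Pdyn and Oprk1 were not tested. That filter left 6170 genes, with 1.43% of all 24378 counted genes called in place of 1.88%. The blocked-design form, under which Pdyn and Oprk1 were called, was settled after fits with both forms had been seen.

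Penk ran from 153.9 to 525.9 CPM (median 315.9) in inhibitory and from 374.3 to 701 CPM (median 438.2) in excitatory wild-type cells. It was lower in inhibitory cells in 5 of the 7 sets, and the log2 difference of -0.60 (SE 0.18) missed the threshold at an edgeR adjusted p of 0.0633, and passed it under 7 alternatives, such as with at least 20 cells per sum (-0.75, 0.0334) and without the 21-day set (-0.76, 0.0153). Oprl1 ran from 67.9 to 117.2 CPM against 41.2 to 124.1 CPM and the classes overlapped (0.15, SE 0.18, adjusted p = 0.787). The class effect in the reporter lines (vGat inhibitory minus vGlut2 excitatory cells) did not differ detectably from that in wild type for any of the 5 members tested. In that interaction test 0.289% of 8316 genes were called, and the members' differences ran from -0.33 (SE 0.41, Oprk1) to 0.64 (SE 1.53, Pdyn), each with an adjusted p of 0.999. It had no block for the set, so both classes of a wild-type set entered as if independent.

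**Figure D4:**
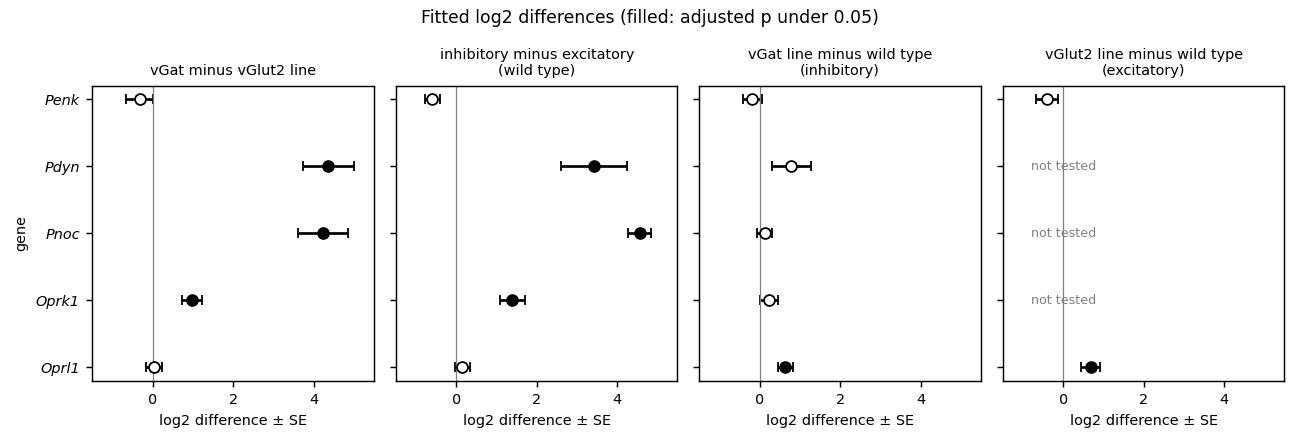
Fitted log2 difference with its SE (horizontal axis) for the 5 opioid genes that passed the filter in 4 comparisons, filled where the adjusted p is under 0.05. Pdyn, Pnoc and Oprk1 lie to the right in both class comparisons, and Oprl1 is the filled point in both comparisons of a reporter line with wild type.

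Within a class, a reporter line was compared with wild type for 5 members in inhibitory cells and 2 in excitatory cells, and the nociceptin receptor Oprl1 was called in each. In inhibitory cells, Oprl1 stood at 150.7, 170 and 121.1 CPM in the vGat sets and at 67.9 to 117.2 CPM (median 88.5) in 7 wild-type sets. The groups did not overlap, and the log2 difference was 0.64 (SE 0.18, edgeR adjusted p = 0.0150). In excitatory cells it stood at 153.03, 191.4, 123 and 92.1 CPM in the vGlut2 sets and at 41.2 to 124.1 CPM (median 71.9) in 9 wild-type sets. These groups overlapped (log2 difference 0.68, SE 0.23, adjusted p = 0.0482 in edgeR). Such calls were common, and 1 of 5 members called in inhibitory cells is near the share of all genes: of 7687 genes in inhibitory cells 8.34% were called higher and 12.9% lower in the vGat line, and of 7163 genes in excitatory cells 4.41% were called higher and 10.7% lower in the vGlut2 line.

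Within types the Oprl1 values lay the same way, which is a description. The types are parts of the same sets that gave the calls, so they are no separate support and no replicates. In inhibitory cells its pooled level was higher in the vGat line in 14 of 14 types with at least 3 cells in each line, and in excitatory cells in 12 of 14. Most members leaned this way in the inhibitory types. Penk and Pnoc were each higher in 12 and lower in 2, and Pdyn was higher in 12 and lower in 1. Oprk1 was higher in 10 and lower in 4, Oprm1 in 10 and 2, and Oprd1 in 3 and 1. The like share over all genes was not computed. Given the vGat line's mix of types, the wild-type type levels of Oprl1 would give 92.7 CPM, and 152.3 CPM was counted. For the vGlut2 line the corresponding values were 72.8 and 129.5 CPM. These values come from the same cells as the calls, and the part of the mix of types was not tested. In Gaba2 and Gaba3, Oprl1 stood at 164.6 and 135.5 CPM in the vGat line and at 58.9 and 57.1 CPM in wild type. Beside this, the oligodendrocyte markers summed to 3016 CPM in vGat inhibitory cells and 28537 CPM in wild-type inhibitory cells, and to 3181 and 37157 CPM in the excitatory cells of the vGlut2 line and wild type. The 4 general neuron markers, all detected, summed to 4580 and 3669 CPM and to 3531 and 2632 CPM in the same order. Their part in the result was not tested. The vGat call was lost in 3 of 19 alternatives, without the 17-day (adjusted p 0.0788) or the 18-day vGat set (0.124) and with at least 20 cells per sum (0.0647). The vGlut2 call was lost in 11 of 22 alternatives. These were leaving out any one of 7 sets, among them the 23-, 24- and 25-day vGlut2 sets (0.0567 to 0.167 over the 7), age as a covariate (0.0938), at least 20 cells per sum (0.125), a filter at 10 CPM (0.0636) and thinned cells (0.231).

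The other members gave no call between a line and wild type in the fits as designed. In inhibitory cells Penk differed by -0.19 (SE 0.24, adjusted p = 0.620), Pdyn by 0.79 (SE 0.48, 0.262), Pnoc by 0.12 (SE 0.19, 0.692) and Oprk1 by 0.23 (SE 0.23, 0.518) on edgeR's log2 scale, each vGat minus wild type. In excitatory cells Penk differed by -0.40 (SE 0.27, edgeR adjusted p = 0.363), but it was called without the 24-day vGlut2 set (-0.85, 0.0205) and with at least 20 cells per sum (-0.99, 0.00673). Pdyn, Pnoc and Oprk1 had too few counts there to be tested. Oprm1 was counted 40 times in vGat inhibitory cells (6.99 CPM, exact Poisson interval 4.99 to 9.51) and 4 times in wild-type inhibitory cells (1.59 CPM, 0.434 to 4.08). The vGat sets stood at 6.85, 4.98 and 11.01 CPM and the wild-type sets at 0 to 7.32 CPM, so the sets overlapped, and no test was made.

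Penk by type and line is given as a description. Its pooled level was higher in the vGat line in 12 of 14 inhibitory types, although the class as a whole was not. The wild-type levels rest on 8 to 36 cells in the types named here. Gaba3 had 198.5 CPM in vGat mice against 63.8 CPM in wild type, with Gaba7 at 196.6 and 14.8 CPM, Gaba9 at 144.8 and 55.99 CPM, and Gaba12 at 152.04 and 15.5 CPM. In Gaba6, the highest type, it stood at 905 and 1375 CPM, and in Gaba2 at 644 and 616.9 CPM. At the vGat line's mix of types the wild-type inhibitory level of 310.9 CPM would be 247.97 CPM, and 303.8 CPM was counted. In excitatory cells 9 of 14 types were higher and 5 lower in the vGlut2 line. The wild-type excitatory level of 453.8 CPM would be 286.9 CPM at the vGlut2 line's mix of types, beside the 309.2 CPM counted there. Across the 14 shared inhibitory types the levels in the vGat line and wild type had a Pearson r of 0.80 for Penk, 0.44 for Pdyn, 0.69 for Pnoc, 0.70 for Oprk1 and 0.56 for Oprl1, and of 0.10 and -0.14 for the sparse Oprm1 and Oprd1. Across 14 excitatory types of the vGlut2 line and wild type it was 0.47 for Penk, 0.18 for Pnoc, 0.08 for Oprk1 and -0.39 for Oprl1, with the other 3 members at or near 0 in most types. The points share their libraries, and types of few cells weigh as much as large ones.

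**Figure D5:**
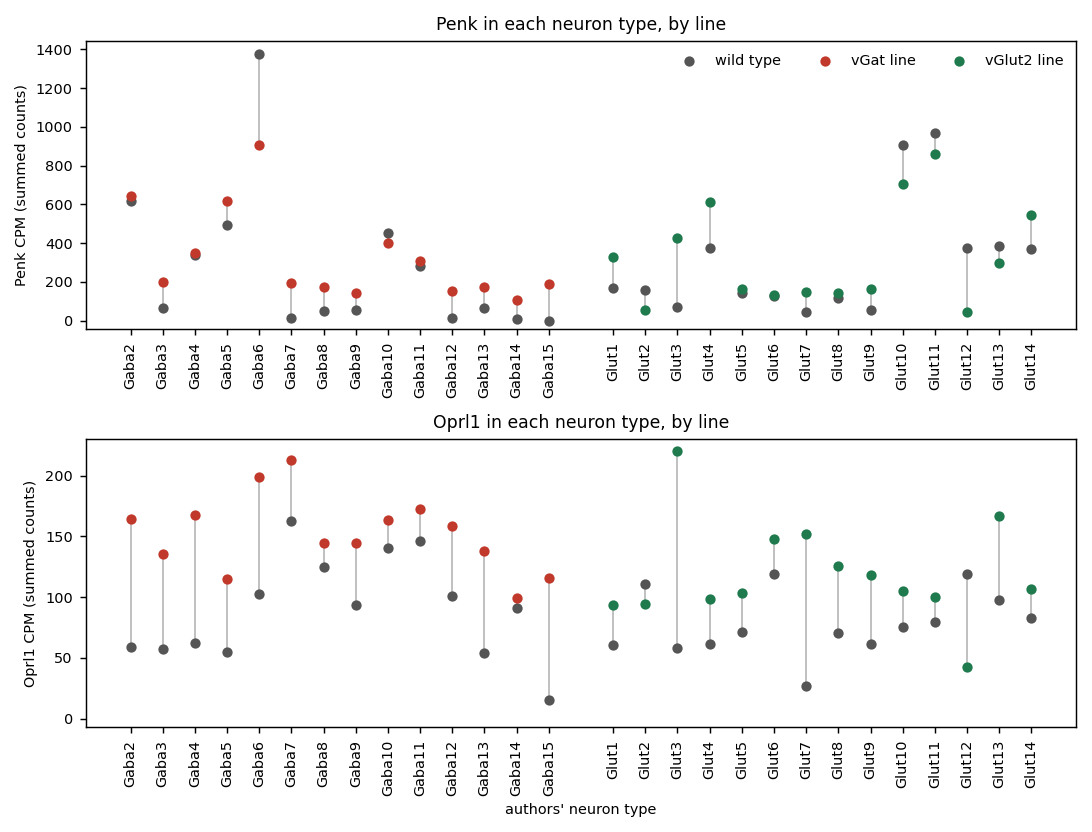
Penk (top) and Oprl1 (bottom) as CPM of summed counts in each neuron type with at least 3 cells in wild type (grey) and in the matching reporter line (red for vGat, green for vGlut2). Oprl1 lies higher in the vGat line in all 14 inhibitory types shown, and Penk lies higher in 12 of them and lower in 2, Gaba6 among these.

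No member passed the test for age between 18 and 28 days in wild-type sets labelled male. Among these sets the 21-day one had Xist in 0% of cells, while the others had it in 60.4 to 100%. The slope per day was tested in 8 sets of excitatory and 6 sets of inhibitory cells, where 0.0269% of 7424 and 0.0472% of 6352 genes were called (2 and 3 genes). The steepest slope among the members was that of Penk in inhibitory cells, -0.12 per day on the log2 scale (SE 0.04), with an unadjusted p of 0.00229 and an edgeR adjusted p of 0.434. Pdyn had -0.10 (SE 0.12, edgeR adjusted p = 0.956) and Pnoc -0.07 (SE 0.03, unadjusted p 0.0369, edgeR adjusted p = 0.699). Penk and Pnoc were the only members with an unadjusted p under 0.05. In excitatory cells Penk (0.02 per day, SE 0.02) and Oprl1 (0.06, SE 0.03) were the members that could be tested.

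Other genes of the opioid pathway were read as a list of partners, of which 44 had an entry in the table. Between the reporter lines 41 were tested, 2 were called higher and 5 lower in the vGat line, beside 4.32% and 4.53% of all genes, with a median log2 difference of -0.09. Of the 6 genes of precursor processing, 3 were lower and 0 higher in the vGat line: Pcsk1 (-1.65) and Pcsk2 (-0.95), the convertases that cut prohormones at basic pairs such as those shown above, and Pcsk1n (-1.34), which encodes an inhibitor of the first. Pcsk2 stood at 436.6 ± 25.3 CPM (SD, n = 3) in the vGat and 819 ± 190.5 CPM (n = 4) in the vGlut2 sets. Among signalling genes, the Gi subunit Gnai2 (-1.12) and the receptor kinase Grk5 (-2.81) were lower, and the adenylyl cyclase Adcy8 (1.81) and Rgs10 (0.67), whose product speeds the switching off of G proteins, were higher. Adcy8 stood at 83.3 ± 3.86 CPM in the vGat and 21.8 ± 4.16 CPM in the vGlut2 sets.

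Between classes within wild type, 33 partners were tested, 1 was called higher and 1 lower, with a median of 0.03. With 5.63% of all genes called, this is near the background. Rgs10 was higher in inhibitory cells (log2 difference 0.68, SE 0.18, edgeR adjusted p = 0.0284), at 222.7 ± 66.5 CPM (SD, n = 7) against 126.7 ± 32.8 CPM over all 9 sets with excitatory cells, 7 of which entered the test. The adenylyl cyclase Adcy2 was lower (-1.57, SE 0.39, adjusted p = 0.0165), at 11.98 ± 8.80 CPM against 31.6 ± 11.5 CPM over the same sets. The 3 processing genes were not called within wild type.

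Against wild type, 8 of 32 partners tested were called in vGat inhibitory cells, 3 higher and 5 lower, and 6 of 31 in vGlut2 excitatory cells, 3 higher and 3 lower. Over all genes 21.2% and 15.1% were called, so these counts are near the background. Gnai2 (-1.48 and -0.70), the Go subunit Gnao1 (-0.63 and -0.78) and the calcium channel subunit Cacna1a (-0.82 and -0.78) were lower in both reporter lines on the log2 scale. In the vGat line Pcsk1n (-1.24) and Pam (-0.87), which encodes the enzyme that amidates peptides, were also lower, and the calcium channel subunit Cacna1b (1.26), Adcy8 (0.97) and Rgs17 (0.57) were higher. In the vGlut2 line Pcsk1 (1.47), Pcsk2 (0.50) and the Gi/o family subunit Gnaz (1.11) were higher. The oligodendrocyte and neuron marker sums given for Oprl1 move with these comparisons too.

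Over the 30 types, the genes whose level was most like that of a member were found by Pearson correlation of log2(CPM + 1) among 11222 genes. Types share libraries and differ in depth, so this is a description. For Pnoc they included Lgals9 (r = 0.91), Lhx5 (0.89), Sfrp1 (0.88) and Pax8 (0.86). For Oprl1 they were Dpp6 (0.81), Gdi2 (0.78), Eif4a2 (0.76), Snap47 (0.74) and Ppp2r1a (0.74). For Penk they were looser and included Capn5 (0.61), Atp1b3 (0.59), Btf3 (0.59) and Gm10094 (0.58). The other members had under 1000 UMIs and were not compared.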

How the data were processed

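Each of the 1545 samples is 1 dorsal horn neuron. The authors deposited raw molecule counts (UMIs) for each gene in each cell, and the sums equalled the deposited total in all 1545 cells. Cell Ranger and the build mm10 are named, without versions, per the submitters' processing notes. The protocol's wording is of a droplet kit, while titles give a run and a well. No cell was removed, and how doublets were treated is not stated. Age, line, type and class are the labels'.

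Counts were summed per animal set (line, sex label, age label) or per set and class with at least 10 cells; the sums held 104516 to 2610563 UMIs. Tests used edgeR 4.0.16 in R 4.3.3 (quasi-likelihood, TMM, filterByExpr given the design matrix, Benjamini-Hochberg at 0.05), fitted on all genes. The design-matrix form of the filter was settled after fits with both forms had been seen; of the comparisons run with both, it alters only that of classes in wild type. DESeq2 1.42.0, other filters and scalings, thinning to 3000 UMIs per cell (which every cell reached) and leaving out each set were alternatives. The fits were tested on simulated data. Types entered a mean with at least 3 cells per set. The named genes are all 7 members, partners with an adjusted p under 0.05, and for members with at least 1000 UMIs the 5 genes nearest in pattern among those with at least 20 CPM in a type; some of these are not reported here. The members and lists were chosen with earlier results of these data known.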

Additional observations from a re-analysis of the deposited data

Results flagged for a closer look

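In 28 groups of 4 to 10 animal sets, a set far from the others was looked for in each member. In all, 5 were found, each from 1 to 3 UMIs. The cut-off flags about 1 in 20 groups of values from a normal distribution. That rate does not hold for counts mostly at 0. The groups of all cells and of excitatory cells of the vGlut2 line also share most of their cells. Oprd1 stood at 9.57 CPM in the 24-day vGlut2 set, in all its cells and in its excitatory cells alike (1 UMI in 19 cells), against 0.511 CPM or less in the other 3 sets. Oprd1 in inhibitory wild-type cells stood at 11.3 CPM in the 21-day set (2 UMIs) and at 0 in the other 6. Pdyn stood at 18.9 CPM over all cells (3 UMIs) and 18.4 CPM over excitatory cells (2 UMIs) of the 26-day vGlut2 set, against 2.19 CPM or less in the other 3 sets. That set also had the oligodendrocyte marker sum of 39988 CPM and 5 cells of inhibitory types; their part was not tested.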

How the results depend on the processing

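Alternatives in which a member was not tested, such as those where it failed the low-count filter, are not counted here. For members that were called, 80.5% of the alternatives counted kept the direction and the call, and the other 26 kept the direction only. For those not called, 91.2% were alike, 10 alternatives gave a call and 23 turned the direction. Every value that turned was uncalled. The cause of the changes was not tested, except that thinning to 3000 UMIs left fewer genes to test (7446, 4143, 2801 and 3185 in the comparisons with calls of members).

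Called genes are given here as a percent of all 24378 genes counted. Between reporter lines they were 3.85%, against 2.21% with thinned cells, 1.35% with age as a covariate and 1.68 to 6.06% leaving out 1 set. Between classes in wild type they were 1.88%, against 1.01% thinned and 1.19% with at least 20 cells per sum. Without the replicate block of animal set, which pairs the classes of the same sets, they were 0.989% with 6170 genes tested, and Pdyn and Oprk1 were not tested. The filter set by group was an alternative added outside the plan, and it altered the count of no other comparison it was run on. The design-matrix form used for the main fits was settled after fits with both forms had been seen. In the vGat line against wild type 6.69% were called, against 2.19% thinned and 4.07 to 7.09% leaving out 1 set, and in the vGlut2 line 4.43%, against 1.91% and 1.68 to 5.49%. For age in excitatory cells the 2 genes became 9 (DESeq2), 21 (no filter), 7 (thinned), 1 (with the set labelled female) and 1 to 5 (leaving out 1 set). For age in inhibitory cells the 3 became 11 (no filter), 7 (thinned), 5 (at least 20 cells) and 1 to 5. For the difference between class effects the 24 became 37 (DESeq2), 91 (no filter), 5 (thinned) and 8 to 40.

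These uncalled log2 differences turned direction. Between reporter lines, Oprl1 was -0.30 with age as a covariate and ran from -0.11 to 0.15 leaving out 1 set, and Penk ran from -0.55 to 0.17. Between classes in wild type, Oprl1 was -0.14 thinned. In the difference between class effects, DESeq2 gave -0.74 for Pdyn and -0.32 for Pnoc, and Oprl1 was 0.035 with no filter and 0.28 thinned. Leaving out 1 set there, Penk ran from -0.060 to 0.67, Pdyn from -0.72 to 1.57, Pnoc from -0.75 to 1.41 and Oprl1 from -0.18 to 0.062. The age slopes in inhibitory cells ran from -0.32 to 0.026 for Pdyn and from -0.0081 to 0.0095 for Oprk1. Pdyn in the vGat line against wild type was called with no filter (0.89, adjusted p 0.0318).

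Depth limits Oprm1 and Oprd1, with 60 and 14 UMIs in all, to levels with counting intervals.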
